A study of Mus musculus with 6 samples.

Results

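Col2a1, Acan, Gdf5, Prg4, Runx2 and Sp7 are 6 genes of the cartilage, joint and bone programme, and they were examined in ChIP-seq peak lists of mouse Ewing sarcoma cells. Members are the peaks of 5 lists that lay within 50 kb of fixed mm9 spans of these genes, 57 of 76477 peaks in all. The ES48 and ES49 cell lines are EWS-FLI1-induced murine Ewing sarcoma cells on a Balb/c background, grown without special treatment. EWS-FLI1 was precipitated with a FLAG antibody and H3K27ac with its own antibody in ES48 and in ES49, while H3K27me3 was precipitated in ES49 alone. Every group is 1 library, so values carry no replicate error, no test between the lines was possible, and intervals on shares cover counting error only. The labels do not say from which cells the lines came, which vector carried the fusion or whether a line is a clone. Peak lists do not measure expression, so the labelled cell type could not be checked against marker transcripts.

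EWS-FLI1 is the fusion oncoprotein of Ewing sarcoma, an ETS-family transcription factor that can bind repeats of GGAA and open them as enhancers. Mouse models of this tumour have been made by putting the fusion into embryonic osteochondrogenic progenitors, cells that can form cartilage and bone, and the human tumour arises mostly in bone. H3K27ac marks active promoters and enhancers, and H3K27me3 is the mark of Polycomb repressive complex activity at silent developmental genes. Cartilage cells deposit type II collagen and aggrecan, joint cells use Gdf5 and lubricin, and osteoblasts form under Runx2 and then Sp7.

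H3K27ac was found within 50 kb of all 6 genes in both lines, and H3K27me3 near 3 of them in ES49. ES48 had 19 H3K27ac peaks at the 6 loci, covering 36.1 kb, and ES49 had 24, covering 30.1 kb. ES49 had 13 H3K27me3 peaks, covering 16.95 kb, at Col2a1, Acan and Gdf5 only among the 6. EWS-FLI1 had 1 peak in ES48, inside the Gdf5 span, and 0 in ES49. The 6 windows add up to 1057 kb. H3K27ac covered 3.41% of them in ES48 and 2.85% in ES49, while the whole lists covered 1.87% and 1.39% of the genome span in ES48 and ES49. H3K27me3 covered 1.60% of the windows in ES49 and 0.643% of the genome span. The 6 genes were not chosen at random and lie among other genes, so these densities are a description.

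**Figure D1:**
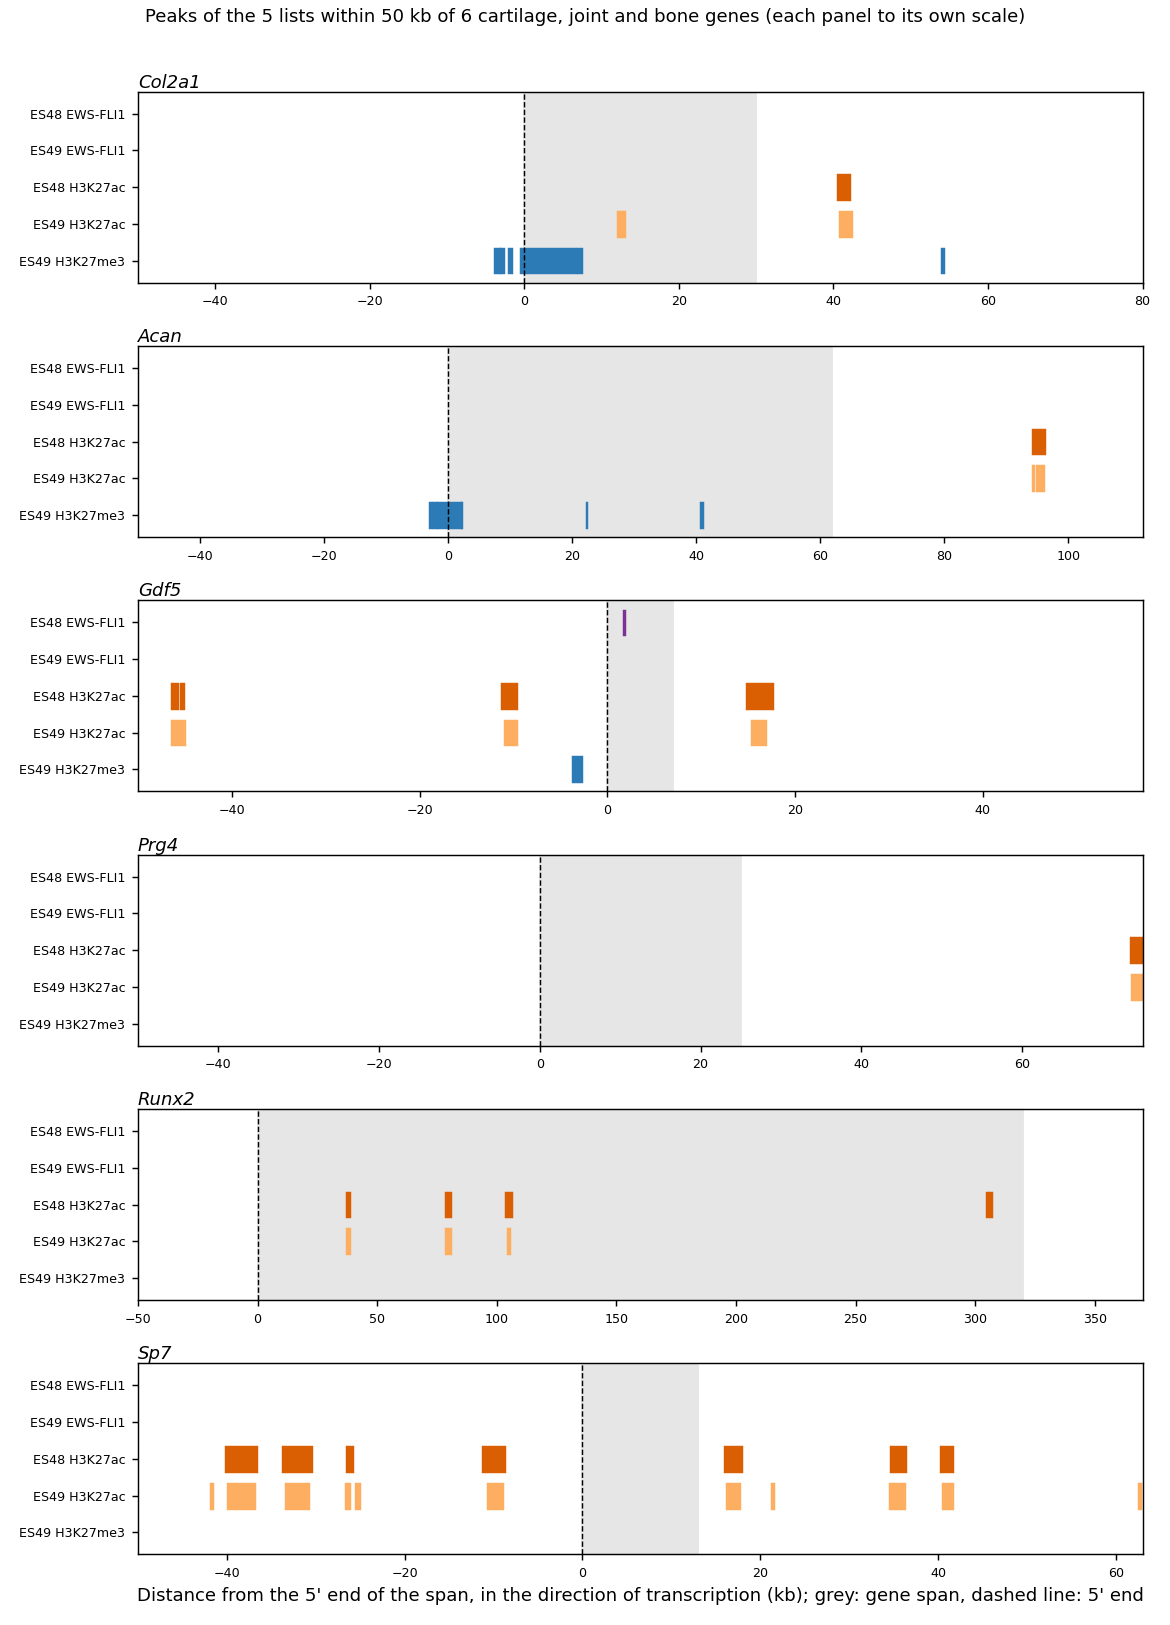
Peaks of the 5 lists around each gene, 1 panel per gene and 1 line of bars per list, against the distance in kb from the 5′ end of the span in the direction of transcription. The grey area is the gene span and the dashed line its 5′ end. H3K27me3 covers the 5′ ends of Col2a1 and Acan, and H3K27ac covers none of the 6.

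H3K27me3 lay over the 5′ ends of the cartilage matrix genes, and H3K27ac over none of the 6. The span ends are given to the nearest 1 kb, so a distance of that size is not resolved. The promoter table of RefSeq gives the strand of Acan and Runx2, and the other 4 genes are known to be read toward lower coordinates in the mouse. The 5′ ends covered by an H3K27me3 peak were 2, those of Col2a1 and Acan. From the 5′ end, the nearest H3K27ac peak in ES48 lay 8.75 kb away at Sp7, 9.60 kb at Gdf5, 36.8 kb at Runx2, 40.4 kb at Col2a1, 73.4 kb at Prg4 and 94.3 kb at Acan. In ES49 the distances were 8.90 kb at Sp7, 9.59 kb at Gdf5, 11.96 kb at Col2a1, 36.9 kb at Runx2, 73.6 kb at Prg4 and 94.1 kb at Acan. Col2a1 was thus the single gene of the 6 for which this distance differed between the lines by more than 1 kb. The ES49 distance there is to a weak peak of score 84.12, which 66.7% of the ES49 H3K27ac list reached or exceeded.

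Col2a1 encodes the chain of type II collagen, the main fibrillar collagen of cartilage. In mm9 its span is chr15:97806000-97836000, and H3K27me3 in ES49 formed a run over the 5′ end. This run of 5 peaks, joined where they lay within 2 kb of each other, reached from 97828516 to 97839975, a length of 11.5 kb of which 9.64 kb was covered. Its main peak, 97829286 to 97836566, was 7281 bp wide and had a score of 3100. Scores are those the authors' peak caller gave, with no stated scale, so they are compared only within a list. In the H3K27me3 list only 1.23% of peaks scored as high or higher, and 0.552% were as wide or wider. The other 4 peaks of the run scored between 74.03 and 170.86, and a further H3K27me3 peak of score 75.56 lay 23.9 kb past the 3′ end.

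H3K27ac covered 1.36% of the Col2a1 window in ES48 and 2.11% in ES49, beside 1.87% and 1.39% of the genome span in those lines. ES48 had 1 peak, 97793804 to 97795574 with a score of 1405.42, lying 10.4 kb beyond the 3′ end. ES49 had its counterpart at 97793618 to 97795340 with a score of 696.72. On that side the RefSeq table of GRCm38.p6 places Tmem106c next to Col2a1, and on the 5′ side Senp1, a SUMO protease gene. No annotation of mm9 was used, so no peak here could be assigned to a neighbouring gene's promoter. ES49 alone had 2 H3K27ac peaks inside the Col2a1 span, 97822908 to 97823295 and 97823405 to 97824041. Their scores were 59.36 and 84.12, near the lowest score of that list, 50.01. The H3K27me3 run began 4.48 kb from them, toward the 5′ end. Tiles of 130 kb, the length of this window, held at least 1 ES49 H3K27me3 peak in 16.3% of cases over the genome. They held ES48 H3K27ac in 39.5% and ES49 H3K27ac in 37.4%.

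Acan encodes aggrecan, the large proteoglycan that gives cartilage its resistance to compression. Its span is chr7:86198000-86260000, read toward higher coordinates, and H3K27me3 in ES49 covered its 5′ end too. The main peak, 86196280 to 86200029, was 3750 bp wide and scored 1501.92, with 3.41% of the list as high or higher and 2.83% as wide or wider. It belonged to a run of 4 peaks from 86194929 to 86200330, 5.40 kb long. Inside the gene lay 2 further H3K27me3 peaks, of scores 55.85 and 59.21, which are close to the list's lowest score of 50. Genome tiles of 162 kb held an ES49 H3K27me3 peak in 18.7% of cases.

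Polycomb complexes are known to gather at CpG islands. The sequences before the Acan and Runx2 starts are printed here because RefSeq's promoter table of GRCm38.p6 held only these 2 of the 6 genes. Col2a1, Gdf5, Prg4 and Sp7 were not in it. The 5′ end of the mm9 span had an H3K27me3 peak at Acan and no peak of any list at Runx2. The sequences are the 250 bases before each start, 5′ to 3′, at chr7:79052976-79053225 on the plus strand for Acan and chr17:44814628-44814877 on the minus strand for Runx2. Those positions are GRCm38.p6 and cannot be set against the mm9 peaks. Whether these starts are the ends of the mm9 spans, and which Runx2 promoter the sequence belongs to, was not tested. Capitals mark CG in Acan, and GGAA in Runx2, whose sequence holds no CG.
Acan: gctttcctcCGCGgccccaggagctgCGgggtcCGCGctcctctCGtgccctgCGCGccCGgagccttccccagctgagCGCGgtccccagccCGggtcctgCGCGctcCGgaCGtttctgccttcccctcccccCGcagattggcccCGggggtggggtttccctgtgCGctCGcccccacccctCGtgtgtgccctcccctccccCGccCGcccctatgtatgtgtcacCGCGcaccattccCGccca
Runx2: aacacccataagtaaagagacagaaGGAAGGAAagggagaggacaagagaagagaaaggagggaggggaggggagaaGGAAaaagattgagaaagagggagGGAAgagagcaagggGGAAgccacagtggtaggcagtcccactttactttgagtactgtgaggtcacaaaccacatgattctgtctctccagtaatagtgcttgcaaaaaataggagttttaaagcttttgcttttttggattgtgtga
The Acan sequence held 26 CG dinucleotides at a GC content of 74.4%, and 9.59% of 32851 promoters in the table held as many or more. The Runx2 sequence held 0 at a GC content of 44.8%, against a median of 6 over all promoters. GGAA, counted on both strands, occurred 5 times in each sequence and in 93.4% of all promoters. The tandem GGAAGGAA, which contains GGAA and was searched on both strands, was found once in Runx2 and not in Acan, and 3.12% of promoters held it. CCGGAAGT, the ETS consensus, and TATAAA were found in neither on either strand, while 2.88% and 12.4% of promoters held them. These letters describe the windows and do not show that a factor binds there. Whether CG content goes with H3K27me3 was not tested, since only 2 of the 6 genes had a sequence.

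H3K27ac near Acan was a single stretch far past the 3′ end. ES48 had 1 peak, 86292253 to 86294341 with a score of 839.33, lying 32.3 kb beyond the span. ES49 had 2 peaks in the same stretch, 86292145 to 86292485 with a score of 55.82 and 86292840 to 86294128 with a score of 341.74. Both lines therefore marked the same place. In GRCm38.p6 the genes on that side are Hapln3, a link protein that binds hyaluronan, and Mfge8, a secreted glycoprotein gene. Genome tiles of 162 kb held H3K27ac in 43.6% of cases in ES48 and 41.0% in ES49. The smallest gap between H3K27me3 and H3K27ac at Acan was 53.2 kb with the ES48 peaks and 53.1 kb with the ES49 peaks.

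**Figure D2:**
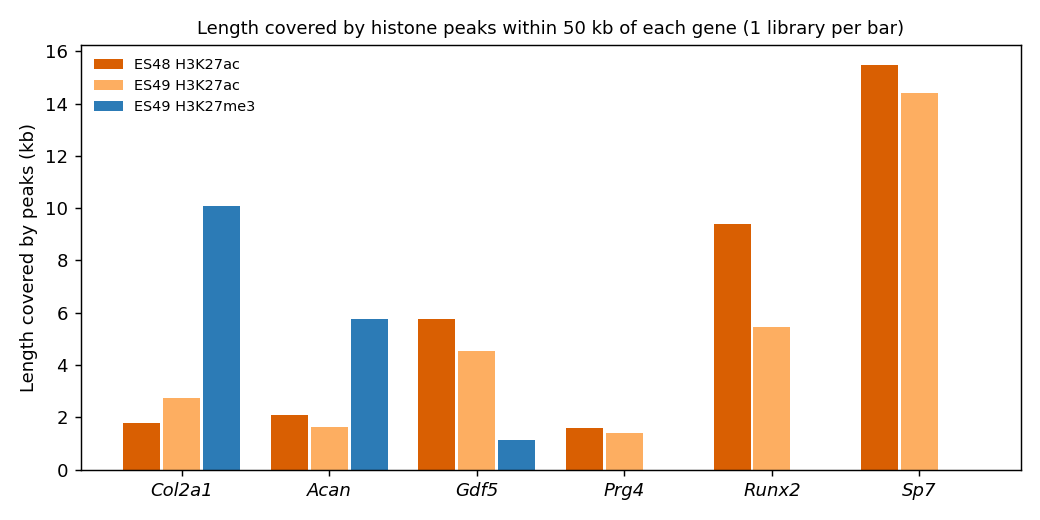
Length in kb covered by H3K27ac peaks of ES48 and ES49 and by H3K27me3 peaks of ES49 within 50 kb of each gene, 1 library per bar and no error bars. H3K27me3 exceeds H3K27ac at Col2a1 (10.1 kb) and Acan (5.74 kb) and is at 0 for Prg4, Runx2 and Sp7.

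Gdf5 encodes a BMP-family ligand that marks and shapes developing joints. With both lines pooled, it was the single gene with all 3 kinds of peak nearby. EWS-FLI1 was called there in ES48 alone, and H3K27me3 was precipitated in ES49 alone. The Gdf5 span is chr2:155765000-155772000. The ES48 EWS-FLI1 peak at 155770171 to 155770351 was 181 bp wide and lay 1.65 kb inside the 5′ end. Its score was 55.08, the lowest in the list being 50.08, and 79.2% of ES48 EWS-FLI1 peaks scored as high or higher. It overlapped no peak of the other 4 lists, and the nearest ES49 EWS-FLI1 peak on the chromosome was 3029 kb away. Genome tiles of 107 kb held an EWS-FLI1 peak in 1.57% of cases in ES48 and 1.04% in ES49. A call this close to the lowest score in 1 library, not seen in the other line, has no check in these data.

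H3K27me3 in ES49 had 1 peak at Gdf5, 155774688 to 155775819, 2.69 kb upstream of the 5′ end. It was 1132 bp wide with a score of 275.85, and 14.5% of the list scored as high or higher. Tiles of this length held H3K27me3 in 14.5% of cases as well. The mark thus stood beside the gene start, on a far shorter stretch than at Col2a1 and Acan.

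H3K27ac flanked Gdf5 on both sides in both lines. On the 3′ side ES48 had a peak at 155754382 to 155757203 with a score of 3100, and ES49 had one at 155755076 to 155756703 with a score of 709.11. A score of 3100 is shared by many peaks, and 19.6% of the ES48 H3K27ac list and 6.01% of the ES49 H3K27ac list scored as high or higher. For the ES49 peak that share was 26.2%. On the 5′ side the ES48 peak was 155781604 to 155783356, again with a score of 3100, and the ES49 peak was 155781585 to 155782983 with a score of 1674.01, reached or exceeded by 13.6% of its list. The H3K27me3 peak of ES49 lay between the gene and this upstream peak. It was 5.79 kb from the ES48 H3K27ac peak and 5.77 kb from the ES49 H3K27ac peak. Farther upstream, ES48 had 2 short peaks of scores 69.51 and 106.26 where ES49 had 1 peak of 1524 bp with a score of 475.78. Gdf5's neighbours in GRCm38.p6 are Uqcc1 on the 3′ side and Cep250, a centrosome gene, and 6430550D23Rik on the 5′ side. Tiles of 107 kb held H3K27ac in 36.5% of cases in ES48 and 34.4% in ES49.

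Prg4 encodes lubricin, the glycoprotein that lubricates joint surfaces, and its locus was the barest of the 6. No peak of any list lay in or next to its span, chr1:152290000-152315000. The single H3K27ac peak of each line, 152239102 to 152241591 in ES48 and 152239370 to 152241384 in ES49, crossed the border of the window 48.4 kb and 48.6 kb past the 3′ end. Their scores were 2567.04 in ES48 and 1650.74 in ES49. The nearest H3K27me3 peak was 1932 kb away, so no peak of either mark was called at the gene. Tiles of 125 kb held H3K27ac in 39.1% of cases in ES48 and 36.9% in ES49, and H3K27me3 in 15.9%. In GRCm38.p6 Prg4 overlaps Tpr, a gene for a nuclear pore protein. Only these 2 peaks crossed the 50 kb limit. The nearest peaks left out of any window were ES48 H3K27ac peaks at Gdf5, 51.5 and 53.0 kb from the span with scores of 246.17 and 162.28. The farthest peak kept whole was an ES49 H3K27ac peak at Sp7, 49.5 kb away with a score of 53.26.

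Runx2 encodes the master transcription factor of osteoblasts, which also acts in cartilage cells on their way to bone. The gene is known to have a distal and a proximal promoter, and its span, chr17:44632000-44952000, is by far the longest of the 6. H3K27ac lay inside the gene, with 5 peaks in ES48 covering 9.39 kb and 4 peaks in ES49 covering 5.45 kb, and no peak fell in the flanks. The highest-scoring peak in each line, 44913350 to 44915180 in ES48 (score 3100) and 44913435 to 44915098 in ES49 (score 1723.54), lay 36.8 kb and 36.9 kb inside the 5′ end. In ES48 19.6% of the list scored as high or higher, and in ES49 13.2%. A second place, 44871037 to 44873750 in ES48 and 44870976 to 44873597 in ES49, had its middle 79.6 kb and 79.7 kb inside the 5′ end. Its scores were 1617.04 in ES48 and 1025.37 in ES49. Both lines thus had a peak at these 2 places. The 5′ end of the span had no peak of any list nearer than 36.8 kb. Which internal peak, if any, lies at the proximal promoter was not analysed here.

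Of the 6 loci Runx2 had the largest difference in covered H3K27ac length between the lines, and also the longest window, 420 kb. As a share of the window the difference was not the largest. H3K27ac covered 2.23% of the Runx2 window in ES48 and 1.30% in ES49, beside 1.87% and 1.39% of the genome span in those lines. At Gdf5 it covered 5.37% in ES48 and 4.25% in ES49. At 44845771 to 44848370 ES48 had 1 H3K27ac peak of 2600 bp with a score of 566.68, where ES49 had 2 peaks of 482 and 677 bp with scores of 66.51 and 95.63. Near the 3′ end ES48 had 2 peaks, 44644975 to 44646345 and 44646527 to 44647396, with scores of 446.33 and 278.42, and ES49 had none there. These were the only 2 of 19 ES48 H3K27ac peaks at the 6 loci with no ES49 counterpart. In the whole ES48 list 8667 of 25970 peaks had none. In GRCm38.p6 Supt3, a gene for a chromatin co-activator subunit, overlaps Runx2. Which of the 2 genes the peaks inside the span belong to was not tested. Covered length in ES48 exceeded that in ES49 by 3.94 kb, which is 1.72-fold. The nearest H3K27me3 peak in ES49 was 676 kb from Runx2. Tiles of 420 kb held H3K27me3 in 32.9% of cases, ES48 H3K27ac in 62.0% and ES49 H3K27ac in 57.8%.

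Sp7 encodes osterix, the transcription factor that acts after Runx2 to complete osteoblast formation. Its window was the most acetylated of the 6, with 15.5 kb covered by 7 peaks in ES48 and 14.4 kb by 11 peaks in ES49, yet no peak of any list touched its span, chr15:102185000-102198000. On the 3′ side the nearest H3K27ac peak was 102180060 to 102182094 in ES48 and 102180302 to 102181889 in ES49, 2.91 kb and 3.11 kb from the span. Their scores were 1758.4 in ES48 and 1055.96 in ES49. On the 5′ side the nearest was 102206753 to 102209264 in ES48 and 102206899 to 102208713 in ES49, with scores of 1196.03 and 676.91 in those lines. The widest lay 36.6 kb upstream in ES48, 102234648 to 102238222, and 36.9 kb upstream in ES49, 102234871 to 102237969, each with a score of 3100, which 19.6% of the ES48 list and 6.01% of the ES49 list reached or exceeded. Beside it was a peak 30.5 kb upstream in ES48 (score 3100) and 30.8 kb upstream in ES49 (score 2149.55).

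The acetylation around Sp7 lay in a gene-rich stretch. In GRCm38.p6 its protein-coding neighbours within 50 kb are Sp1, the broadly expressed relative of Sp7, on the 5′ side and Aaas, Myg1, Pfdn5 and Espl1 on the 3′ side. All 7 ES48 peaks had an ES49 counterpart, as did 66.6% of the whole ES48 list. Of the 11 ES49 peaks 4 had no ES48 counterpart, beside 9325 of 29652 in the whole ES49 list. These 4 scored between 53.26 and 73.89, close to the list's lowest score. The nearest H3K27me3 peak was 324 kb from Sp7. Tiles of 113 kb held ES48 H3K27ac in 37.2% of cases, ES49 H3K27ac in 35.3% and ES49 H3K27me3 in 15.1%.

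Most H3K27ac peaks at the 6 loci were found in both lines. Of the 19 ES48 peaks, 17 overlapped an ES49 peak by at least 1 bp (89.5%, 95% Clopper-Pearson interval 66.9 to 98.7), beside 66.6% of the whole ES48 list. Of the 24 ES49 peaks, 18 overlapped an ES48 peak (75.0%, 53.3 to 90.2), beside 68.6% of the whole ES49 list. The ES48 interval only just leaves the list's share outside and the ES49 interval holds it, and neighbouring peaks are not independent, so neither is read as particular to these genes. The line-specific peaks were the 2 ES48 peaks near the 3′ end of Runx2, with scores of 278.42 and 446.33, and 6 short ES49 peaks, 2 inside Col2a1 and 4 around Sp7. These 6 were 360 to 637 bp wide with scores of 53.26 to 84.12, while the 18 shared ES49 peaks had a median width of 1608 bp and a median score of 819.36. Over the whole ES49 list line-specific peaks had a median width of 457 bp and a median score of 67.26.

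Covered length was higher in ES48 than in ES49 at 5 of the 6 loci and lower at 1. The difference, ES48 minus ES49, was 3.94 kb at Runx2, 1.198 kb at Gdf5, 1.09 kb at Sp7, 0.459 kb at Acan, 0.207 kb at Prg4 and -0.977 kb at Col2a1. The negative value at Col2a1 rests on the 2 ES49 peaks inside that span, whose scores of 59.36 and 84.12 are near the list's lowest. The Col2a1 peak found in both lines was 1771 bp wide in ES48 and 1723 bp in ES49. Over the 6 loci ES48 exceeded ES49 by 5.92 kb, a ratio of 1.196. The whole ES48 list covers 1.35 times the length of the ES49 list. The ratio at the 6 loci lay below that of the lists with 50 kb around the spans and with 10 kb (1.31). It lay above that of the lists with the spans alone (1.45) and with 100 kb (1.37), so the order depends on the window. With the spans alone, all of the ES48 length was at Runx2, and the ES49 length was at Runx2 and Col2a1. Peaks that paired 1 to 1 between the lines gave the same picture. The 13 pairs had a median ES48 to ES49 width ratio of 1.24, from 0.993 to 1.73, and 12 were wider in ES48. Over the whole lists 13143 pairs had a median ratio of 1.27, and 81.2% were wider in ES48.

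**Figure D3:**
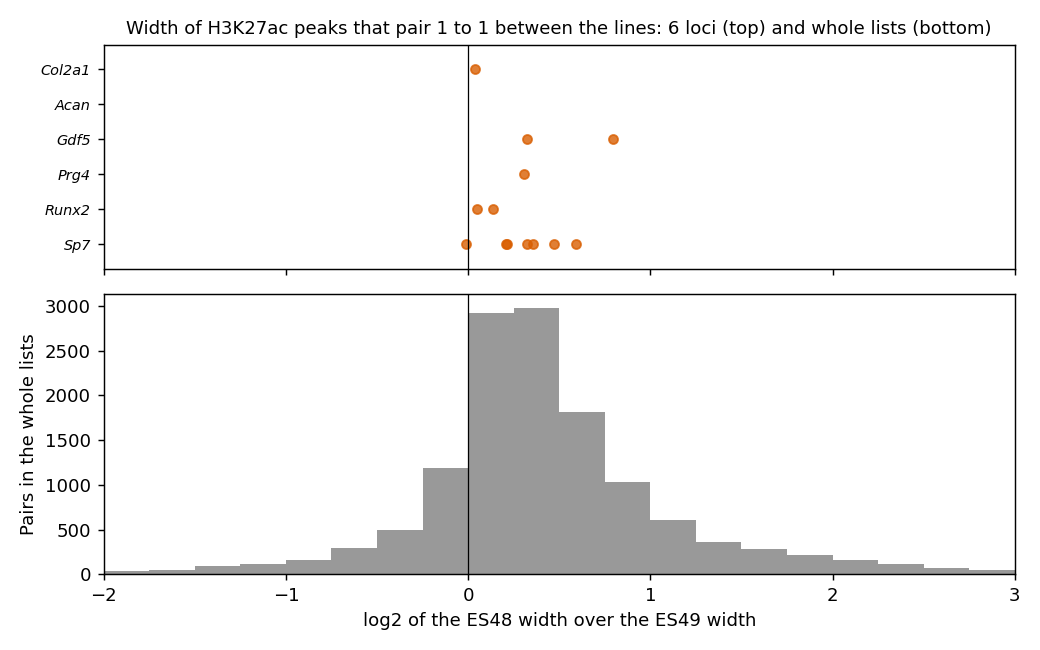
Log2 of the ES48 width over the ES49 width for H3K27ac peaks that pair 1 to 1 between the lines. Each point in the upper panel is 1 of 13 pairs at the 6 loci by gene. The lower panel counts the 13143 pairs of the whole lists, with the few pairs below -2 or above 3 not drawn. Of the 13 pairs, 12 lie above 0, as do 81.2% of all pairs. Acan has no such pair because ES49 splits the peak.

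The active and Polycomb marks did not meet at these genes. Of 13 H3K27me3 peaks in ES49, 0 overlapped H3K27ac of ES49 (Clopper-Pearson interval up to 24.7%) or of ES48, and 0 of 24 ES49 H3K27ac peaks overlapped H3K27me3 (up to 14.2%). Over the whole lists 1.49% of H3K27me3 peaks overlapped ES49 H3K27ac and 2.90% overlapped ES48 H3K27ac, and 0.890% of ES49 H3K27ac peaks overlapped H3K27me3. Overlap is rare throughout, so its absence at the 6 loci was not detectable as a difference with these numbers. By gene, H3K27me3 covered more than ES49 H3K27ac at Col2a1 (10.1 against 2.75 kb) and Acan (5.74 against 1.63 kb) and less at Gdf5 (1.13 against 4.55 kb). It was not called at Prg4 (ES49 H3K27ac 1.39 kb inside the window), Runx2 (5.45 kb) or Sp7 (14.4 kb). Absence from a list means that no peak passed the caller's threshold.

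EWS-FLI1 peaks were far from all of these genes except Gdf5. From the other 5 spans, the nearest ES48 EWS-FLI1 peak was 2174 kb away at Sp7, 2175 kb at Col2a1, 4646 kb at Runx2, 5678 kb at Acan and 13059 kb at Prg4. In ES49 the nearest was 3389 kb away at Runx2, 9253 kb at Prg4, 9951 kb at Acan, 35945 kb at Col2a1 and 40324 kb at Sp7. The lists are short. ES48 has 614 EWS-FLI1 peaks and ES49 has 681 over 2574 Mb. For windows as long as those of these 5 genes, between 1.66% and 5.56% of genome tiles held an ES48 peak and between 1.09% and 3.60% an ES49 peak, so most places of this size hold none. The 5 shares were 1.89% in ES48 and 1.23% in ES49 for Col2a1, 2.31% and 1.52% in those lines for Acan, 1.81% and 1.19% for Prg4, 5.56% and 3.60% for Runx2, and 1.66% and 1.09% for Sp7.

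**Figure D4:**
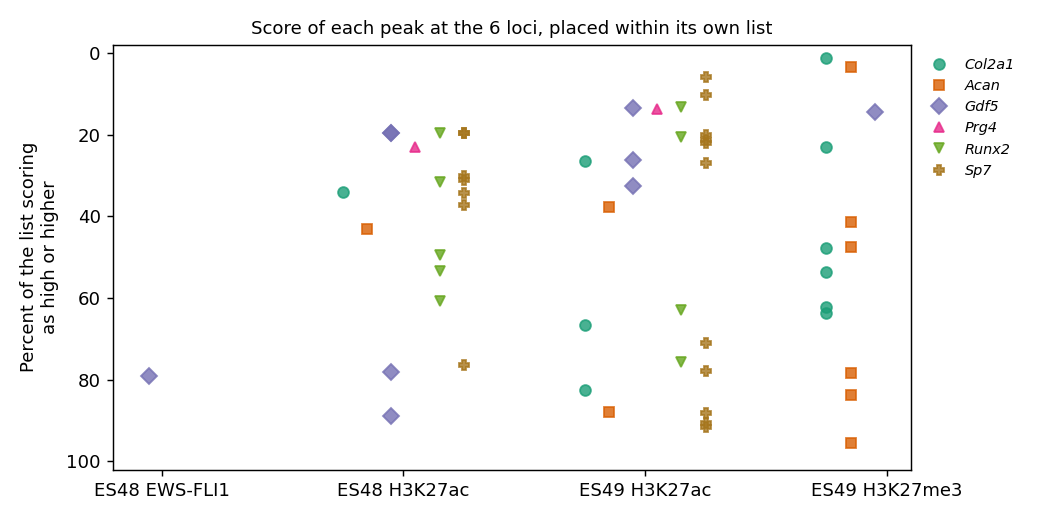
Place of each peak at the 6 loci within its own list, as the percent of that list with a score as high or higher, for the 4 lists that have a peak there. Higher points are stronger calls. The main H3K27me3 peaks of Col2a1 (1.23%) and Acan (3.41%) stand near the top of their list. The other H3K27me3 peaks of these genes stand between 23.2% and 95.5%. The Gdf5 EWS-FLI1 peak (79.2%) stands in the lower part of its own list.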

How the data were processed

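The submitters' processing notes name mm9, Bowtie 1.1.1 and SAMtools 1.2. Peak names begin with MACS; how that caller was run is not given in the sources at hand. The deposited lists give each peak's position and the authors' score, the caller's own, which has no stated scale and was compared only within a list. Read depth is unknown. Start positions were shifted by 1 to count from 1.

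Peaks within 50 kb of the 6 spans were taken from each list, and overlap meant at least 1 bp. Covered length is clipped to the window. Tiles cut each chromosome, over the stretch that holds peaks, into pieces as long as a window. The functions were checked on simulated peaks. No test was run, since each group is 1 library. All 6 genes were described, with every EWS-FLI1 peak, and the highest, the widest and any peak at the 5′ end of each histone list. The genes and lists were chosen with earlier results of these data known. The planned list of further cartilage and bone genes needs an mm9 annotation and was not analysed here, nor was the ES49 input. Tools were Python 3.11.15 with pandas 2.3.3, numpy 2.4.6 and scipy 1.17.1, and matplotlib 3.10.9 for figures.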

Additional observations from a re-analysis of the deposited data

How the results depend on the processing

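Under other settings 47 values were recomputed. A change of direction was defined only for the 5 length differences, and 0 of those 5 reversed. Of 28 counts 19 stayed within 1.5-fold, including counts that were 0 both times. Of 14 shares 12 stayed within their interval. The 5 values of the length difference have no interval and are given in full. The ES48 minus ES49 difference in H3K27ac length, 5.92 kb, was 2.92 kb with the spans alone, 3.64 kb with 10 kb around them, 16.5 kb with 100 kb, 6.41 kb with the upper 50% by score and 7.50 kb with H3K27ac lists of equal length. The ES48 to ES49 ratio of length was 1.25 with the upper 50% by score and 1.26 with lists of equal length, beside 1.33 and 1.40 over the whole lists so cut. With the spans alone ES48 had 5 H3K27ac peaks, all at Runx2, of which 60.0% overlapped the other line, beside 66.6% of the whole ES48 list. ES49 then had 6 H3K27ac peaks, at Runx2 and Col2a1, and 6 H3K27me3 peaks, at Col2a1 and Acan. With 10 kb the H3K27ac peaks were 9 in ES48 and 11 in ES49, and with 100 kb ES48 had 32. With the upper 50% by score the ES48 EWS-FLI1 peak at Gdf5 was lost (0 left), ES49 had 14 H3K27ac peaks, 92.9% of them shared, and H3K27me3 had 7. The share of ES48 H3K27ac peaks with an ES49 counterpart was 84.2% with lists of equal length. For these 2 ways of cutting the lists the share over all peaks was not computed. The 92.9% and 84.2% thus have no background beside them. No setting gave an overlap of H3K27ac with H3K27me3 or an ES49 EWS-FLI1 peak at the 6 loci. Starting from 0, narrower windows, the score limit and a stricter overlap could give nothing else. Only the 100 kb windows and, for the overlap, counting peaks within 1 kb could have changed these values. The fewer peaks under narrower windows and score limits follow from their construction. No paired analysis was possible because each group is 1 library.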
